A study of Homo sapiens with 18 samples.

Results

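Apical-basal polarity genes were described across MCF-10A cells that overexpressed splicing factors. The 10 genes, chosen by name as the core of the PAR, Crumbs and Scribble complexes, were PARD3, PARD6B, PRKCI, PRKCZ, CRB3, MPP5, SCRIB, LLGL1, LLGL2 and DLG1. They are 10 of the 60252 genes counted, and 9 of them were among the 21326 genes with enough counts to be tested; SCRIB was not. MCF-10A is an immortalised, non-tumorigenic human mammary epithelial line that forms hollow acini in a basement membrane gel. All cells carried a stably integrated retroviral construct and were harvested on day 8 of 3D culture in Matrigel. The SRSF2-OE, SRSF4-OE, SRSF6-OE, SRSF9-OE and TRA2B-OE groups carried the coding sequence of the named factor, and the Control group carried the empty PWZL vector. SRSF2, SRSF4, SRSF6 and SRSF9 are SR proteins and TRA2B is SR-like; all act in pre-mRNA splicing. Each overexpression (OE) group was compared with Control.

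Epithelial cells keep an apical and a basolateral surface apart by mutual antagonism between protein complexes. At the apical side, the PAR complex joins the scaffold PARD3, the adaptor PARD6B and an atypical protein kinase C (PRKCI or PRKCZ), and the Crumbs complex joins the membrane protein CRB3 to the adaptor MPP5, now also named PALS1. On the basolateral side act the Scribble group proteins SCRIB, LLGL1, LLGL2 and DLG1; the atypical kinases phosphorylate the LLGL proteins and remove them from the apical cortex. In mammary acini these complexes set the position of the lumen, and MCF-10A cells are known for little CRB3 and for poorly formed tight junctions.

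The 18 samples, 3 per group, held 36426438 to 70515965 counts each. Replicates 1 and 2 of SRSF4-OE, of SRSF6-OE, of TRA2B-OE and of Control were lanes of a single library by their labels and were summed (replicate 1-2). The resulting 14 libraries, 3 each in SRSF2-OE and SRSF9-OE and 2 in each other group, held between 42959069 and 121601376 counts. The labels mark these summed libraries with a library ID and the other 10 with a number, and no SRSF2-OE or SRSF9-OE library carries a library ID. SRSF2 averaged 306 CPM (counts scaled to the TMM-normalised library size) in SRSF2-OE and 190 in Control, SRSF4 177 in SRSF4-OE and 83.4 in Control, SRSF9 609 in SRSF9-OE and 93.9 in Control, and TRA2B 174 in TRA2B-OE and 105 in Control. Single libraries did not all stand out for their factor. SRSF2-OE replicate 1 had 214 CPM of SRSF2, against 204 and 176 in Control, while both SRSF4-OE and both TRA2B-OE libraries held more, at 223 to 272 CPM. TRA2B-OE replicate 3 had 147 CPM of TRA2B, above Control (106 and 105) but below SRSF4-OE (158 and 168). Without these 2 libraries edgeR called 0 members in every contrast. SRSF6 averaged 350 CPM in SRSF6-OE and 319 in Control, with SDs of 94.4 and 114 (n = 2 each), so the SRSF6-OE label was not borne out by a level beyond the spread. All 12 basal epithelial markers examined were detected, with a summed level of 20668 to 47273 CPM per library, and the 3 hormone-sensing luminal markers summed to at most 2.61 CPM. Levels within the basal list were uneven, from KRT5 at 7076 to 20002 CPM to EPCAM at 0.540 to 11.4 CPM. Of 8 fibroblast markers, COL1A1 (44.0 to 277 CPM) and DCN (6.30 to 413 CPM) were highest, PDGFRB reached 2.68 CPM and the other 5 stayed at or below 0.436 CPM. Of 4 endothelial markers KDR had 2.24 to 26.2 CPM and the other 3, CDH5, VWF and CLDN5, at most 0.135 CPM. Of 4 leukocyte markers CD14 reached 5.51 CPM and PTPRC at most 0.183 CPM. Mitochondrially encoded genes took 6.45% to 16.4% of counts, and the mean log2 level of 10 mitosis genes ran between 4.33 and 6.89.

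Per kilobase of exon, the genes ranked with PRKCI first, at a median over the 14 libraries of 12.3 CPM per kilobase, and then PARD3 at 10.7, DLG1 at 8.58, LLGL1 at 8.06, CRB3 at 5.42, MPP5 at 4.78, LLGL2 at 4.59, PRKCZ at 3.48 and PARD6B at 0.540. The ranges of neighbours in this order overlapped except at its end: PARD6B reached at most 0.897 CPM per kilobase, and PRKCZ never fell below 2.63. Between libraries, CRB3 varied most: its highest CPM was 3.24 times its lowest. LLGL2 spanned 2.88-fold, PARD6B 2.61-fold and LLGL1 2.04-fold, and the other 5 spanned 1.60-fold to 1.89-fold. The log2 range of LLGL2 exceeded that of 81.8% of the 5189 genes with a mean CPM within 2-fold of its own, against 69.7% for CRB3 and 24.1% to 60.0% for the other 7.

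**Figure D1:**
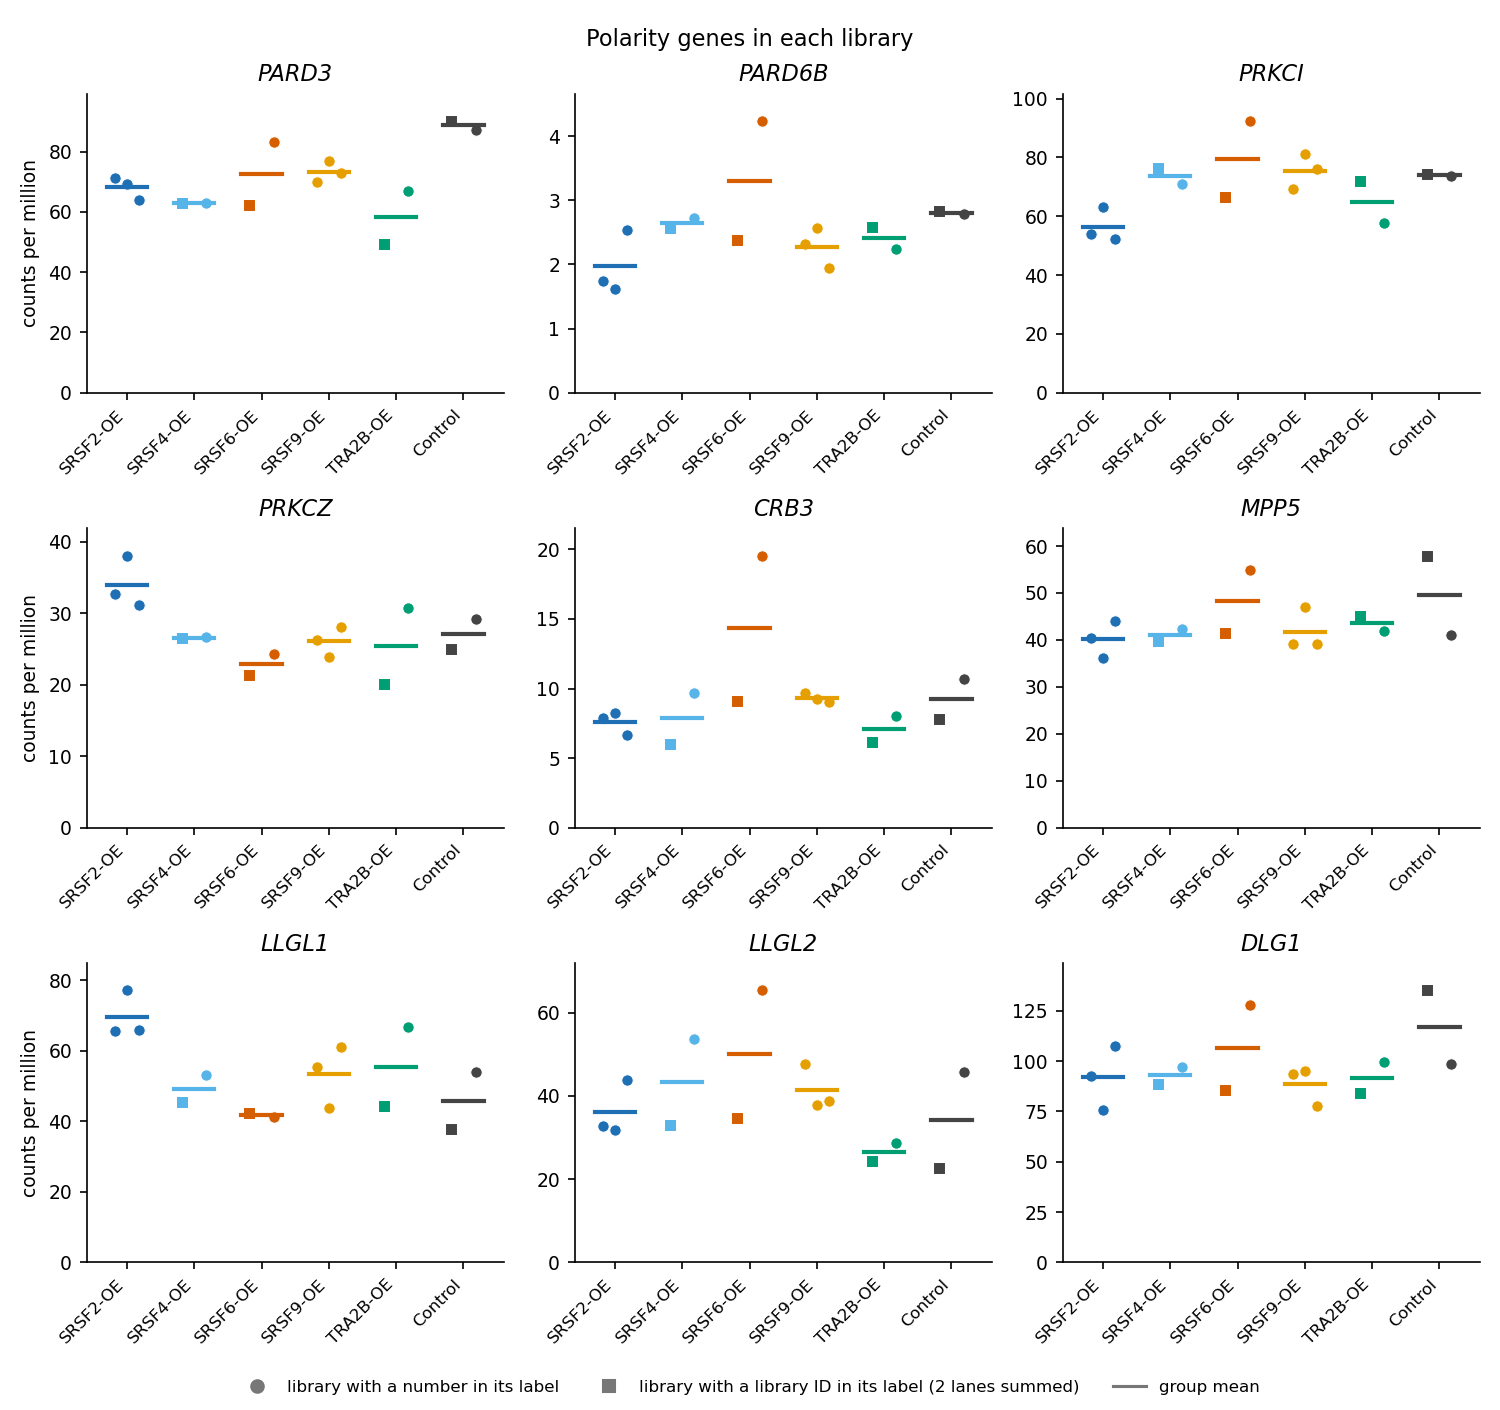
CPM of 9 polarity genes (y axis, 1 panel per gene) in each library, by group, with overexpression groups left of Control; each point is a library, squares are libraries with a library ID and horizontal lines are group means. PARD3 lay below both Control libraries in all 12 OE libraries, and SRSF6-OE replicate 3 held the highest CRB3, LLGL2, PARD6B and PRKCI values. With CPM on total counts this held for CRB3, LLGL2 and PARD6B but not for PRKCI, which was 79.4 in that library and highest, at 84.2, in SRSF9-OE replicate 2.

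PARD3, on chromosome 10, codes for the scaffold that anchors the PAR complex at cell junctions. It had 71.2, 69.1 and 64.0 CPM in SRSF2-OE, 63.0 and 63.1 in SRSF4-OE, 62.2 and 83.2 in SRSF6-OE, 70.0, 76.8 and 73.0 in SRSF9-OE and 49.3 and 67.1 in TRA2B-OE, against 90.3 and 87.1 in Control. Every one of the 12 OE libraries was below both Control libraries. PARD3 was the only 1 of the 9 tested members with this pattern, which 3.87% of all tested genes shared, and the pattern was the same with CPM on total counts. No member lay above both Control libraries in all 12 OE libraries, as 4.31% of all tested genes did. The 5 comparisons share the 2 Control libraries, so they are not independent of each other.

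The log2 fold change of PARD3 against Control was -0.49 ± 0.15 (SE) in SRSF2-OE, -0.49 ± 0.16 in SRSF4-OE, -0.30 ± 0.16 in SRSF6-OE, -0.38 ± 0.15 in SRSF9-OE and -0.62 ± 0.16 in TRA2B-OE. Its edgeR quasi-likelihood p, Benjamini-Hochberg adjusted over all tested genes, was 0.246, 0.251, 0.302, 0.870 and 0.218 in that order, so it did not pass 0.05 in any of these contrasts. The DESeq2 Wald test gave an adjusted p of 0.0345 in TRA2B-OE, where 2.12% of all genes passed, and of 0.105 or more in the other groups. With the 18 samples entered as separate replicates, which counts lanes of a library as replicates, edgeR adjusted p-values were 0.0219 in SRSF2-OE, 0.0123 in SRSF4-OE, 0.0302 in SRSF6-OE and 0.00163 in TRA2B-OE.

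The size of the PARD3 difference moved with the label set. Among libraries with a library ID, PARD3 was lower than in Control by a log2 difference of -0.52 in SRSF4-OE, -0.54 in SRSF6-OE and -0.87 in TRA2B-OE, against -0.46, -0.07 and -0.38 in the same groups among libraries with a number. SRSF2-OE and SRSF9-OE, with numeric labels only, differed by -0.35 and -0.25. Over fits that each left out a library, the fold change in SRSF4-OE was -0.65 without Control replicate 3 and -0.28 without Control replicate 1-2, and that in SRSF6-OE was -0.46 and -0.12. Without SRSF2-OE replicate 1 and TRA2B-OE replicate 3 together, it was -0.47 in SRSF2-OE and -0.80 in TRA2B-OE. Mean log2 levels of the mitosis genes ran from 4.39 to 6.89 in the 12 OE libraries and were 4.33 and 5.53 in the Control libraries. The 4 endothelial markers, nearly all KDR, summed to 2.35 to 12.6 CPM in the 12 OE libraries and to 26.2 and 20.2 CPM in Control, so they too were lower in every OE library. The part of either list in the PARD3 difference was not tested. In bulk RNA, fewer cells that make a transcript and less of it per cell cannot be told apart.

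PARD6B, on chromosome 20, encodes the adaptor that couples the small GTPase CDC42 to the atypical kinases, and was the scarcest tested member. It had 1.75, 1.62 and 2.54 CPM in SRSF2-OE, 2.57 and 2.73 in SRSF4-OE, 2.37 and 4.24 in SRSF6-OE, 2.32, 2.57 and 1.94 in SRSF9-OE and 2.58 and 2.24 in TRA2B-OE, against 2.83 and 2.79 in Control. Here 11 of 12 OE libraries were below both Control libraries and SRSF6-OE replicate 3 was above them. The share of all tested genes with such a split was not counted. The unadjusted p was 0.0892 or more in every edgeR contrast with Control.

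The atypical kinases, PRKCI on chromosome 3 and PRKCZ on chromosome 1, differed in opposite directions in SRSF2-OE. PRKCI had 54.0, 63.0 and 52.3 CPM in SRSF2-OE, 76.4 and 71.1 in SRSF4-OE, 66.4 and 92.5 in SRSF6-OE, 69.3, 81.1 and 76.0 in SRSF9-OE and 72.0 and 57.7 in TRA2B-OE, against 74.2 and 73.6 in Control. PRKCZ had 32.7, 38.1 and 31.2 CPM in SRSF2-OE, 26.5 and 26.6 in SRSF4-OE, 21.4 and 24.3 in SRSF6-OE, 26.2, 23.9 and 28.1 in SRSF9-OE and 20.1 and 30.7 in TRA2B-OE, against 25.0 and 29.2 in Control. The 3 SRSF2-OE libraries held more PRKCZ than any of the other 11, a pattern shared by 1 of 9 members and 0.792% of all tested genes, and less PRKCI than both Control libraries, as did 3 of 9 members and 17.5% of all tested genes. No member was below the other 11 libraries in all of SRSF2-OE, as 1.16% of tested genes were. Against Control, the log2 fold change was -0.39 ± 0.18 for PRKCI and 0.20 ± 0.17 for PRKCZ, and neither passed edgeR (adjusted p = 0.385 and 0.637).

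The count of PRKCI over that of PRKCZ brings both differences together, a measure chosen after the values were seen. How often ratios of other gene pairs set a group apart from all other libraries was not counted. The ratio was 1.66 ± 0.0135 in SRSF2-OE (SD, n = 3), 2.78 ± 0.153 in SRSF4-OE, 3.46 ± 0.496 in SRSF6-OE (n = 2 each), 2.92 ± 0.420 in SRSF9-OE (n = 3), 2.73 ± 1.20 in TRA2B-OE and 2.75 ± 0.315 in Control (n = 2 each). SRSF2-OE libraries lay between 1.65 and 1.68, below all others, of which the nearest was TRA2B-OE replicate 3 at 1.88. On the log2 scale these were 0.72 to 0.75 and 0.91. The ratio also moved between lanes of a single library. In the 4 libraries with 2 lanes, the first lane held less PRKCI (log2 difference -0.09 to -0.16) and more PRKCZ (0.08 to 0.12). The gap to TRA2B-OE replicate 3 was smaller than these shifts of the ratio. The part of lane in the SRSF2-OE ratio was not tested. In the annotation, 7.73% of PRKCZ exon bases overlap FAAP20 on the opposite strand, and reads there could be assigned to either gene if strand was not used in counting.

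**Figure D2:**
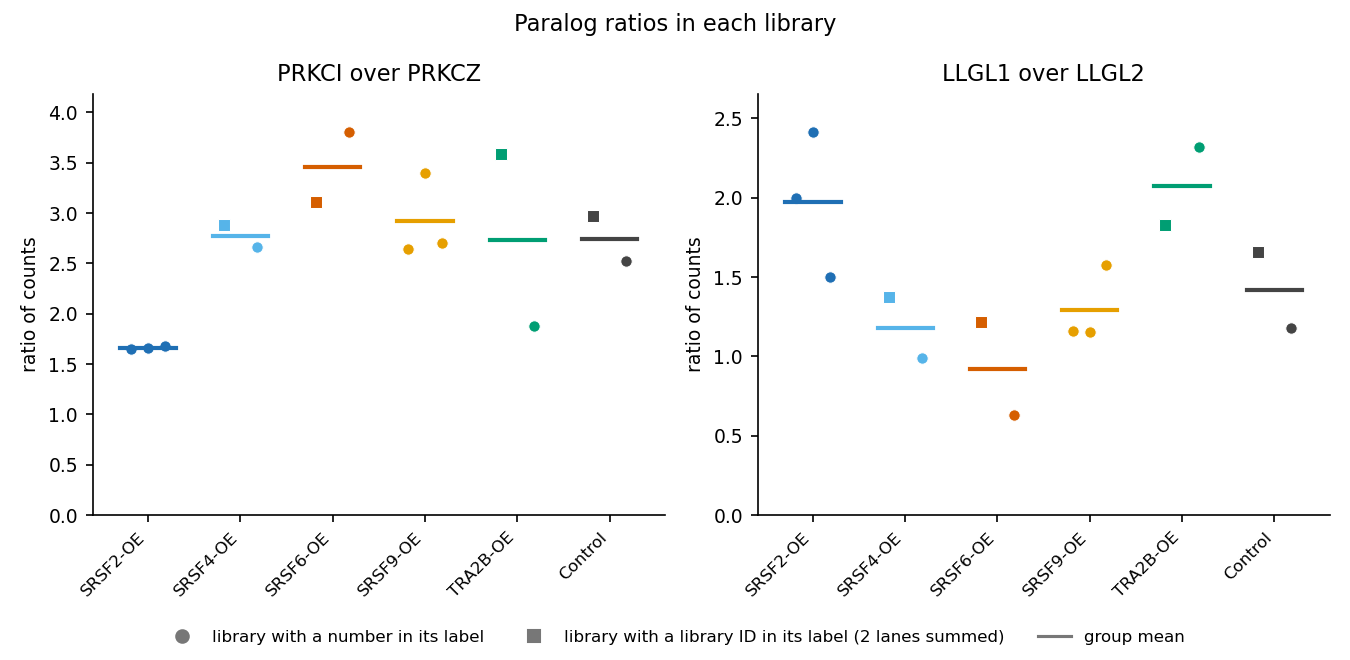
Ratio of counts of PRKCI to PRKCZ (left) and of LLGL1 to LLGL2 (right) in each library (points; squares carry a library ID) by group, with lines for group means. For the kinases the 3 SRSF2-OE libraries sat at 1.65 to 1.68, below the other 11, while for the LLGL genes SRSF2-OE and TRA2B-OE averaged 1.97 and 2.07 and SRSF6-OE 0.923. The kinase ratio was chosen after the values were seen.

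CRB3, on chromosome 19, encodes the short transmembrane Crumbs protein of epithelia, through which the complex marks the apical surface. Its promoter is shown because CRB3 varied most of the members and because SNAI and ZEB family repressors, which bind E-boxes, are known to repress it. The sequence covers the 250 bases before the transcription start in RefSeq (GRCh38.p14, chr19:6464021-6464270, plus strand), with matches to CAGGTG and to its reverse complement CACCTG in capitals.
CRB3 promoter: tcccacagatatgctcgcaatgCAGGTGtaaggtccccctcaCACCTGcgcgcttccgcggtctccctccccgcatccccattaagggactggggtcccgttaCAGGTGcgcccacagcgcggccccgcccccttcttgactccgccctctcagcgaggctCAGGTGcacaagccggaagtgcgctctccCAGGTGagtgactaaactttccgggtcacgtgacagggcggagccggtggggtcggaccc

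It held 5 such matches, 4 of CAGGTG and 1 of CACCTG, starting 228, 208, 147, 89 and 60 bases before the start. Of 35116 promoter windows of this length in the RefSeq table, 17.5% held at least 1 match on either strand and 0.0740% held 5 or more. For 6 members the table gave 13 windows, of which 4 held a match: the CRB3 window, 2 of 4 PRKCZ windows, with 3 and 1 matches, and 1 of 5 DLG1 windows, with 1. A match describes letters in the window and is not evidence of binding.

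CRB3 had 7.86, 8.21 and 6.63 CPM in SRSF2-OE, 6.04 and 9.67 in SRSF4-OE, 9.12 and 19.6 in SRSF6-OE, 9.67, 9.23 and 9.06 in SRSF9-OE and 6.16 and 8.00 in TRA2B-OE, against 7.78 and 10.7 in Control. SRSF6-OE replicate 3 stood above all other libraries, and the groups otherwise overlapped Control. The library with a number held more CRB3 than that with a library ID in SRSF4-OE, SRSF6-OE, TRA2B-OE and Control. Over the 6 groups, the edgeR quasi-likelihood F test gave CRB3 an adjusted p of 0.235, while the likelihood ratio test of DESeq2 gave an adjusted p of 9.54e-05. DESeq2 passed 2 of 9 members in that test, CRB3 and LLGL2, beside 7.42% of all genes.

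Against Control, the log2 fold change of CRB3 was 0.56 ± 0.22 in SRSF6-OE (edgeR unadjusted p = 0.0280, adjusted p = 0.222) and -0.60 ± 0.21 in SRSF2-OE (unadjusted p = 0.0182, adjusted p = 0.286). Without SRSF6-OE replicate 3 the first value was 0.26, and without the label set term the second was -0.29. Within label sets, the log2 difference of CRB3 between SRSF6-OE and Control was 0.23 with a library ID and 0.87 with a number. SRSF6-OE replicate 3 also had the lowest mitochondrial share, 6.45%, and the highest summed basal marker level, 47273 CPM, of all libraries; their part in the CRB3 level was not tested.

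MPP5, on chromosome 14, encodes the adaptor between CRB3 and PATJ. It had 40.5, 36.2 and 44.1 CPM in SRSF2-OE, 39.7 and 42.3 in SRSF4-OE, 41.6 and 54.9 in SRSF6-OE, 39.1, 47.1 and 39.1 in SRSF9-OE and 45.1 and 42.0 in TRA2B-OE, against 58.0 and 41.1 in Control. Of the 12 OE libraries, 5 lay below both Control libraries and none above both, and every OE group had a library within the range of Control. The smallest unadjusted p against Control was 0.193.

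SCRIB, on chromosome 8, encodes the scaffold that names the basolateral complex. Its row held 4 counts in all over the 14 libraries, with 0 to 2 in each. It lay in an unbroken run of 16 protein-coding genes, 5 before it and 10 after it, that each held fewer than 50 counts over all libraries, among them PUF60 with 0 and PLEC with 41. The flanking genes ZNF623 and CYC1 held 52213 and 187222 counts. No level of SCRIB could therefore be read from these counts, and the cause of the gap was not tested.

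LLGL1 and LLGL2, both on chromosome 17, encode the Lethal giant larvae proteins that atypical protein kinase C phosphorylates. LLGL1 had 65.7, 77.1 and 65.8 CPM in SRSF2-OE, 45.4 and 53.1 in SRSF4-OE, 42.3 and 41.1 in SRSF6-OE, 55.4, 43.7 and 61.1 in SRSF9-OE and 44.5 and 66.7 in TRA2B-OE, against 37.7 and 54.0 in Control. All 3 SRSF2-OE libraries were above both Control libraries, as were those of PRKCZ, so 2 of 9 members had this pattern, beside 16.7% of all tested genes. The log2 fold change of LLGL1 in SRSF2-OE was 0.46 ± 0.20 (edgeR unadjusted p = 0.0396, adjusted p = 0.350).

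LLGL2 had 32.8, 31.9 and 43.9 CPM in SRSF2-OE, 33.1 and 53.6 in SRSF4-OE, 34.8 and 65.3 in SRSF6-OE, 47.8, 37.9 and 38.8 in SRSF9-OE and 24.3 and 28.8 in TRA2B-OE, against 22.7 and 45.9 in Control. In SRSF4-OE, SRSF6-OE, TRA2B-OE and Control, the library with a number held more than that with a library ID. The log2 fold change in SRSF6-OE was 0.56 ± 0.22 (edgeR unadjusted p = 0.0311, adjusted p = 0.225), and within label sets it was 0.61 with a library ID and 0.51 with a number. Over the 6 groups LLGL2 had an edgeR adjusted p of 0.320 and a DESeq2 adjusted p of 0.0484. The ratio of LLGL1 to LLGL2 counts averaged 1.97 ± 0.459 in SRSF2-OE (SD, n = 3), 1.18 ± 0.271 in SRSF4-OE, 0.923 ± 0.415 in SRSF6-OE (n = 2 each), 1.30 ± 0.241 in SRSF9-OE (n = 3) and 2.07 ± 0.346 in TRA2B-OE (n = 2), against 1.42 ± 0.343 in Control (n = 2).

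DLG1, on chromosome 3, encodes a scaffold with PDZ and guanylate kinase-like domains at the lateral membrane. It had 92.6, 75.7 and 108 CPM in SRSF2-OE, 88.8 and 96.9 in SRSF4-OE, 85.4 and 128 in SRSF6-OE, 93.8, 94.8 and 77.6 in SRSF9-OE and 84.2 and 99.4 in TRA2B-OE, against 135 and 98.5 in Control. The difference from Control rested on the Control library with a library ID: within that label set the log2 difference was -0.60 in SRSF4-OE, -0.66 in SRSF6-OE and -0.68 in TRA2B-OE, against -0.02, 0.38 and 0.01 in the same groups with numeric labels. No DLG1 contrast with Control had an unadjusted p below 0.0786.

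Over the 9 tested members, edgeR called 0 at an adjusted p under 0.05 in each of the 5 contrasts with Control and in the F test. Among all genes it called 0% in SRSF2-OE, 0% in SRSF4-OE, 0.00469% in SRSF6-OE, 0% in SRSF9-OE, 0.00938% in TRA2B-OE and 0.0422% in the F test, so calls were as scarce elsewhere. DESeq2 passed 0 of 9 members in SRSF2-OE (beside 2.37% of all genes), 0 in SRSF4-OE (2.7%), 0 in SRSF6-OE (5.81%) and 0 in SRSF9-OE (0.0704%), and PARD3 alone in TRA2B-OE. At an unadjusted p under 0.05, edgeR took 3 of 9 members in SRSF2-OE (PARD3 and CRB3 lower, LLGL1 higher), beside 13.4% of all genes. It took 1 of 9 in SRSF4-OE (PARD3, beside 14.9%), 2 of 9 in SRSF6-OE (CRB3 and LLGL2, beside 19.5%), 1 of 9 in SRSF9-OE (PARD3, beside 4.47%) and 1 of 9 in TRA2B-OE (PARD3, beside 12%), and 3 of 9 in the F test (PARD3, CRB3 and LLGL2, beside 13.6%).

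Counted by libraries, members below both Control libraries throughout a group numbered 3 of 9 in SRSF4-OE (PARD3, PARD6B and DLG1, beside 27.2% of all tested genes) and 2 of 9 in SRSF6-OE (PARD3 and PRKCZ, beside 24.4%). They numbered 3 of 9 in SRSF9-OE (PARD3, PARD6B and DLG1, beside 17.6%) and 3 of 9 in TRA2B-OE (PARD3, PARD6B and PRKCI, beside 18.2%). No member was above both in these 4 groups, beside 25.3% of genes in SRSF4-OE, 22.8% in SRSF6-OE, 16.5% in SRSF9-OE and 18.3% in TRA2B-OE. The median log2 fold change of the 9 members was -0.39 in SRSF2-OE, -0.09 in SRSF4-OE, -0.04 in SRSF6-OE, -0.23 in SRSF9-OE and -0.21 in TRA2B-OE, where the medians over all tested genes were 0.04, -0.04, -0.03, 0.00 and 0.00. The medians of the members stayed below 0 with RLE size factors, with total counts and in DESeq2, but depended on the Control libraries and on the label set. Without Control replicate 1-2 they were -0.34 in SRSF2-OE, 0.04 in SRSF4-OE, 0.26 in SRSF6-OE, -0.14 in SRSF9-OE and -0.07 in TRA2B-OE, and without Control replicate 3 they were -0.65, -0.21, 0.03, -0.45 and -0.33 in that order. With numeric labels only, the median was 0.38 in SRSF6-OE and -0.02 in SRSF4-OE, and without the label set term it was -0.06 in SRSF9-OE. Total counts moved the median of all genes in SRSF6-OE by -0.15.

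**Figure D3:**
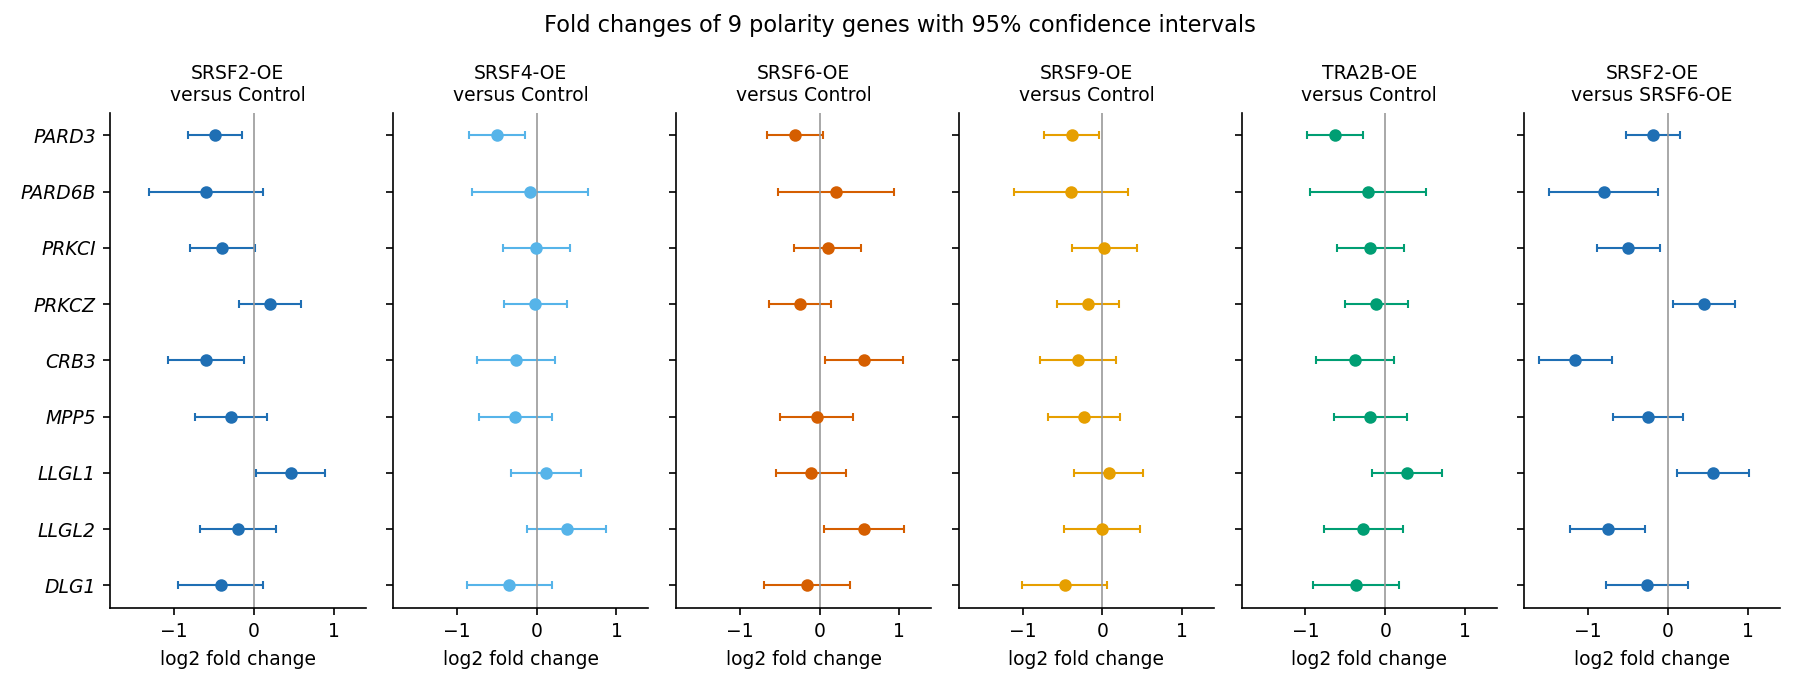
Log2 fold change (x axis) of 9 polarity genes (rows) with 95% confidence intervals from the edgeR fit, in the 5 contrasts with Control and, in the last panel, SRSF2-OE against SRSF6-OE; intervals are not adjusted for multiple testing. PARD3 is left of 0 in every contrast with Control, and CRB3 has the largest difference between SRSF2-OE and SRSF6-OE, -1.16.

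Among the direct contrasts between OE groups, SRSF2-OE against SRSF6-OE had the most members at an unadjusted p under 0.05. All SRSF2-OE libraries carry numbers while SRSF6-OE has a library of each label set, so the label set term, estimated from the Control libraries among others, enters this contrast. They were 6 of 9, beside 17.3% of all tested genes: CRB3, LLGL2, PARD6B and PRKCI were lower in SRSF2-OE, and LLGL1 and PRKCZ were higher. The log2 fold changes were -1.16 ± 0.21 for CRB3, -0.76 ± 0.21 for LLGL2, -0.81 ± 0.31 for PARD6B, -0.50 ± 0.18 for PRKCI, 0.56 ± 0.20 for LLGL1 and 0.45 ± 0.18 for PRKCZ. Without the label set term, the value was -0.47 for LLGL2 and -0.92 for CRB3. No member passed edgeR after adjustment (0.0234% of all genes did), with CRB3 nearest at an adjusted p of 0.0984.

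DESeq2 passed 2 of 9 members in that contrast, CRB3 (adjusted p = 7.39e-05) and LLGL2 (adjusted p = 0.0499), beside 4.06% of all genes. It also passed CRB3, 1 of 9 members, as higher in SRSF6-OE than in SRSF9-OE (adjusted p = 0.0161, beside 0.896% of genes) and than in TRA2B-OE (adjusted p = 0.00623, beside 1.88%). Without SRSF6-OE replicate 3, the SRSF2-OE against SRSF6-OE value was -0.78 for CRB3, -0.23 for PARD6B and -0.09 for PRKCI. It was 0.27 for LLGL1, -0.60 for LLGL2 and 0.38 for PRKCZ.

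The other 9 direct contrasts gave 0 to 3 members at an unadjusted edgeR p under 0.05. SRSF2-OE differed from SRSF9-OE in 3 of 9 (PRKCZ and LLGL1 higher, PRKCI lower, beside 11.7% of genes) and from SRSF4-OE in LLGL2 (lower, beside 7.78%). CRB3 and LLGL2 were higher in SRSF6-OE than in SRSF9-OE (beside 9.55%) and than in TRA2B-OE (beside 13%), CRB3 was lower in SRSF4-OE than in SRSF6-OE (beside 6.44%), and LLGL2 was higher in SRSF4-OE than in TRA2B-OE (beside 6.22%). No member had such a p between SRSF2-OE and TRA2B-OE (beside 3.49%), SRSF4-OE and SRSF9-OE (3.59%) or SRSF9-OE and TRA2B-OE (5.89%).

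The wider polarity network was described by 6 lists of 61 genes, of which 58 were tested. The 3 left out were AMOT, a partner of the Crumbs complex, the tight junction protein OCLN and the apical protein PROM1, none above 0.158 CPM in any library. edgeR called 0 of the 58 in every contrast with Control at an adjusted p under 0.05. At an unadjusted p under 0.05 it took 7 in SRSF2-OE, 10 in SRSF4-OE, 14 in SRSF6-OE, 1 in SRSF9-OE and 6 in TRA2B-OE. These are 12.1%, 17.2%, 24.1%, 1.72% and 10.3% of the 58, beside 13.4%, 14.9%, 19.5%, 4.47% and 12% of all tested genes. DESeq2 passed 2 of 58, both higher in SRSF6-OE, where 5.81% of all genes passed.

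These 2 genes were NECTIN1, a nectin of adherens junctions that binds afadin, and RAB8A, a GTPase of apical vesicle transport. NECTIN1 had 308 and 815 CPM in SRSF6-OE, against 109 and 263 in Control, a log2 fold change of 1.57 ± 0.37 (DESeq2 adjusted p = 0.00498, edgeR adjusted p = 0.145). RAB8A had 46.3 and 66.5 CPM in SRSF6-OE, against 34.3 and 34.4 in Control, a log2 fold change of 0.69 ± 0.19 (DESeq2 adjusted p = 0.0338, edgeR adjusted p = 0.161). For both genes each SRSF6-OE library was above both Control libraries, as were 22.8% of all tested genes. Higher values were not limited to SRSF6-OE. NECTIN1 had 291 to 660 CPM in SRSF2-OE, 269 and 429 in SRSF4-OE, 324 to 489 in SRSF9-OE and 176 and 348 in TRA2B-OE. RAB8A had 42.4 to 57.0 CPM in SRSF2-OE, 34.1 and 49.5 in SRSF4-OE, 38.4 to 45.5 in SRSF9-OE and 46.8 and 53.0 in TRA2B-OE.

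PATJ, which completes the Crumbs complex with CRB3 and MPP5, had 51.7, 53.6 and 53.4 CPM in SRSF2-OE and 53.4 and 54.7 in TRA2B-OE, against 77.0 and 76.0 in Control. All 5 of these OE libraries were lower than both Control libraries, a pattern that 17.5% of all tested genes had in SRSF2-OE and 18.2% in TRA2B-OE. The log2 fold change of PATJ in SRSF2-OE, -0.65 ± 0.20, did not pass edgeR (adjusted p = 0.237). PATJ had 59.5 and 64.0 CPM in SRSF4-OE, 65.7 and 116 in SRSF6-OE and 66.1, 83.9 and 67.2 in SRSF9-OE. ERBIN, a LAP protein like SCRIB, had 62.4, 69.6 and 58.7 CPM in SRSF2-OE, against 101 and 84.0 in Control (log2 fold change -0.52 ± 0.15, edgeR adjusted p = 0.219). Lower ERBIN values were not limited to SRSF2-OE. They were 70.5 and 71.9 CPM in SRSF4-OE, 70.5 and 84.0 in SRSF6-OE, 75.1 to 81.7 in SRSF9-OE and 71.2 and 64.6 in TRA2B-OE. RAB3IP, the exchange factor for RAB8A, had 8.78, 6.59 and 7.49 CPM in SRSF2-OE, against 13.8 and 14.3 in Control (-0.85 ± 0.25, edgeR adjusted p = 0.224).

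The other genes with the smallest p in their lists had edgeR adjusted p-values of 0.276 or more over the 6 groups. In the DESeq2 likelihood ratio test over the 6 groups, 4 of the 12 genes named from the lists passed: ARHGEF7 (adjusted p = 0.00952), AMOTL1 (0.0186), PATJ (0.0234) and NECTIN1 (0.0380). Of all genes, 7.42% passed that test. The 12 genes had been picked from these data by their small edgeR p over the same 6 groups, so this count is not a result about the lists. ARHGEF7, the beta-PIX exchange factor that binds SCRIB, had 74.7 and 105 CPM in SRSF6-OE, against 65.5 and 57.9 in Control. The GTPase RAC1 had 210 and 327 CPM in SRSF6-OE, against 167 and 179 in Control, and AMOTL1, an angiomotin that binds PATJ, had 173 and 291, against 161 and 181. In all 3, SRSF6-OE replicate 3 was the higher of the pair.

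The kinase MARK1, of the PAR-1 family, had 24.6 and 35.2 CPM in SRSF6-OE and 20.2 and 16.9 in Control, and the PAR-4 kinase STK11 had 78.8 and 87.2 in SRSF6-OE and 60.1 and 68.2 in Control. MARK1 also had 26.7 and 24.5 CPM in SRSF4-OE, and 14.6 to 27.1 over SRSF2-OE, SRSF9-OE and TRA2B-OE. STK11 had 83.2 to 91.2 CPM in SRSF2-OE, 82.7 and 75.3 in SRSF4-OE, 60.4 to 72.0 in SRSF9-OE and 65.4 and 82.7 in TRA2B-OE. The list of PAR-1, PAR-4 and 14-3-3 (PAR-5) genes had 13 of its 14 genes above Control in SRSF6-OE (median log2 fold change 0.47) and 11 of 14 with a median of 0.32 on total counts. It had 12 of 14 above Control in SRSF2-OE, 11 in SRSF4-OE, 7 in SRSF9-OE and 12 in TRA2B-OE. Of the 21326 tested genes, 11311 were above Control in SRSF2-OE, 9993 in SRSF4-OE, 10207 in SRSF6-OE, 10709 in SRSF9-OE and 10648 in TRA2B-OE. The 9 tested Crumbs partners had median log2 fold changes of -0.40 in SRSF2-OE, -0.51 in SRSF4-OE, -0.19 in SRSF6-OE, -0.26 in SRSF9-OE and -0.28 in TRA2B-OE. E-cadherin (CDH1) is the adhesion protein that places the Scribble group at lateral contacts. It had 148 and 334 CPM in SRSF6-OE, against 91.2 and 244 in Control. CDH1 also had 184 to 190 CPM in SRSF2-OE, 186 and 266 in SRSF4-OE, 189 to 260 in SRSF9-OE and 113 and 180 in TRA2B-OE. PARD3B, the PARD3 paralog, stayed between 0.84 and 4.56 CPM in all libraries.

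**Figure D4:**
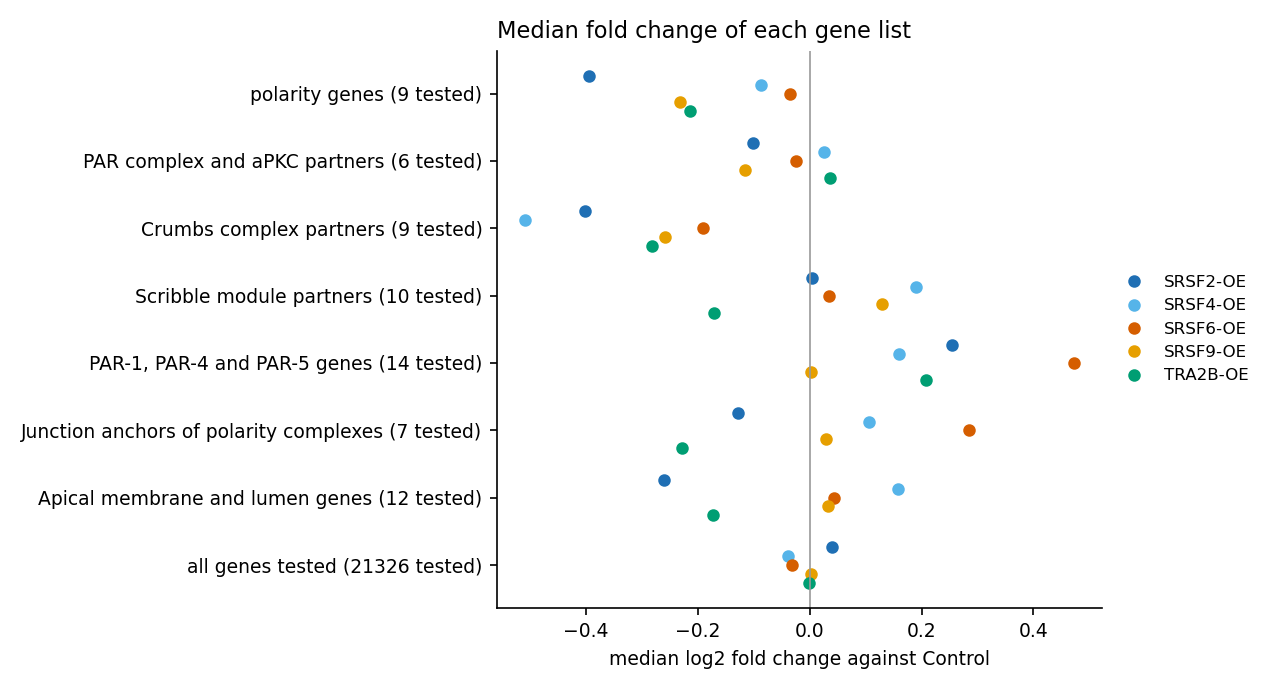
Median log2 fold change against Control (x axis) of the 9 tested polarity genes, of 6 lists of related genes and of all tested genes (rows), with a point for each OE group; the number tested is given beside each list. The Crumbs partners lie left of 0 in all 5 contrasts, and the PAR-1, PAR-4 and PAR-5 list is farthest right in SRSF6-OE, at 0.47.

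The genes whose log2 CPM followed a member most closely over the 14 libraries were sought among 9182 genes for the 3 members with the widest range. CRB3 was followed by LMTK2 (Pearson r = 0.94), TPT1 (0.90) and SPTBN1 (0.90). LLGL2 was followed by CDH1 (0.92), SCD5 (0.92) and DMKN (0.91), and PARD6B by BMT2 (0.95), SPOPL (0.92) and the 14-3-3 gene YWHAZ (0.91). The libraries share groups and label sets, and SRSF6-OE replicate 3 is the highest for each of these 3 members, so r describes these libraries only.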

How the data were processed

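The authors deposited raw counts per gene for 18 samples of stranded, paired-end mRNA sequencing, per the labels' protocols; the submitters' processing notes list Trimmomatic 0.36, STAR 2.5.1b, featureCounts, Subread and the build GRCh37. How strand was handled in counting is not given. The 10 members and 6 related lists were chosen with earlier results of these data known. Lanes of a library were summed, leaving 14 libraries. Counts were filtered (filterByExpr, minimum count 10), normalised by TMM and fitted in edgeR 4.0.16 (R 4.3.3) by the quasi-likelihood test with group and label set as terms, 7 residual degrees of freedom and Benjamini-Hochberg adjustment over 21326 genes. Because of the label set term, log2 fold changes can differ from ratios of mean CPM. DESeq2 1.42.0 and limma-voom (limma 3.58.1) were alternatives, as were other scalings, filters, designs and left-out libraries. The edgeR script was tested on simulated counts. Separate cultures per replicate are not stated in the labels; the p-values therefore reflect library-to-library spread, possibly technical. Gene names and exon lengths came from GENCODE 29, matched by ID (55951 of 60252 named, all 10 members and 61 related genes matched). Named genes were the members, the 2 genes with the smallest F-test p in each list, any edgeR call, the 3 genes closest to each of the 3 most variable members, and genes named to place SCRIB. RefSeq promoter sequences are on GRCh38.p14, another build than that of the counts, and were matched by gene symbol. Same-numbered libraries were checked for pairing.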

Additional observations from a re-analysis of the deposited data

How the results depend on the processing

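The log2 fold changes of members printed above kept their sign under each alternative run. DESeq2 called 1 member in TRA2B-OE and 2 over the 6 groups, where edgeR called 0. Its 4 calls over the direct contrasts, where edgeR also called 0, were of CRB3 and LLGL2 only. With the 18 samples as separate replicates, edgeR called 1 of 9 members in SRSF2-OE, 1 in SRSF4-OE, 3 in SRSF6-OE and 1 in TRA2B-OE. That fit called 3 of 9 over the 6 groups, and its 4 calls over the direct contrasts were again of CRB3 and LLGL2. It counts lanes of a library as replicates, and no share of all genes called is given beside its counts. The direct contrasts, whose alternatives were chosen after seeing the data, gave 1 call among libraries with numeric labels (CRB3, SRSF2-OE against SRSF6-OE), and 0 to 2 calls when libraries were left out in turn: CRB3 and PRKCI without SRSF6-OE replicate 1-2, and CRB3 without TRA2B-OE replicate 1-2 or 3. Leaving out a library gave 0 calls in every contrast with Control and in the F test, but moved PARD3 in SRSF4-OE between -0.65 (without Control replicate 3) and -0.28 (without Control replicate 1-2), and LLGL2 in SRSF6-OE between 0.77 and 0.38 in the same order. Same-numbered libraries deviated together from their group means in 15 of 31 pairs (r above 0.1, range -0.51 to 0.54). In groups with 2 libraries the 2 deviations mirror each other, and the numbers split the libraries as the label set does. The check therefore cannot decide whether the numbers pair the libraries. The replicate block in place of the label set called 0 members and reversed 0 of the 28 fold changes compared. With that block the value was -0.27 for CRB3 in SRSF2-OE against Control and -0.34 for LLGL2 in SRSF2-OE against SRSF6-OE. Of 37 member contrasts with Control at an unadjusted p of 0.05 or more, 23 changed sign under some alternative. The design holds 2 Control libraries, 2 or 3 per OE group and 7 residual degrees of freedom.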

Other observations

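The 4 libraries run on a pair of lanes show how far the counts of a single library differed between lanes. Over 36 comparisons of a member between lanes, the median absolute log2 difference in CPM was 0.0858 and the largest, for CRB3, was 0.246. PARD3 differed by at most 0.0297 between lanes, and PRKCZ by 0.0799 to 0.120. The differences had a direction by gene. In all 4 pairs the first lane had lower CPM of PRKCI, MPP5 and DLG1 and higher CPM of PRKCZ, CRB3, LLGL1 and LLGL2. For PARD3 and PARD6B the direction varied between pairs.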
